A study of Mus musculus with 1470 samples.

Results

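The 10 genes described here, Cd36, Lpl, Gpihbp1, Fabp4, Pparg, Plin2, Abca1, Abcg1, Apoe and Apoc1, act in the uptake, storage and efflux of lipid. They were picked by gene symbol, and all 10 were present among the 14915 gene rows measured in single liver cells of 6 mice. Each was followed across 10 classes of liver cells and compared between normal diet and high-fat diet within a class, with the mouse as the replicate.

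Fatty acids reach a cell from triglyceride in circulating lipoproteins and from albumin. Lipoprotein lipase, encoded by Lpl, cuts the triglyceride, and GPIHBP1, a protein anchored on the capillary endothelium, holds the enzyme at the vessel wall. CD36 binds long-chain fatty acids and oxidized lipoproteins at the cell surface, and FABP4 carries fatty acids inside the cell. PPARγ, the nuclear receptor encoded by Pparg, activates many genes of fat storage, and PLIN2 coats lipid droplets. The transporters ABCA1 and ABCG1 pass cholesterol to lipoprotein particles, apolipoprotein E is a ligand for lipoprotein receptors, and apolipoprotein C1 is a small exchangeable protein of the same particles. In the liver, hepatocytes secrete much of the apolipoprotein in plasma, Kupffer cells (KCs, the resident macrophages of the sinusoid) take up particles and debris, and sinusoidal endothelial cells filter lipoproteins from the blood.

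Non-parenchymal cells were isolated from male wild-type C57BL/6J mice kept on normal chow (ND, mice ND1, ND2 and ND3) or on a high-fat diet (HFD, mice HFD1, HFD2 and HFD3) that was begun in young animals and lasted for weeks. Livers were perfused with collagenase, most hepatocytes were pelleted, and live cells were sorted 1 to a well for Smart-seq2, which reads whole transcripts and carries no molecular identifiers. The labels name no allele or agent beyond the diet. They give the mouse of a cell but no preparation, plate or run, so that a mouse and its batch cannot be told apart. Cells of HFD2 carry names of another form than those of the other mice, and what the form stands for is not given. There were 718 cells from the ND mice and 752 from the HFD mice, 1470 in all.

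The deposited values are RPKM (reads scaled by the length of the transcript and the mapped reads of the cell), so that levels of different genes can be set side by side. Levels are given below as the mean of log2(RPKM + 1) over the cells of a class in 1 mouse, unless RPKM is named, and a difference on this scale understates the change of a low gene. The reads on exons behind a cell, estimated from the steps between low RPKM values, had a median of 86195 to 196884 per mouse. At the median depth 1 read was worth 0.805 RPKM for the long Abca1 transcript, 2.01 for Lpl, 9.23 for Fabp4, 10.02 for Gpihbp1 and 15.5 to 19.1 for the short Apoc1 transcripts, so a cell listed at 0 for Apoc1 or Gpihbp1 may hold more transcript than a cell listed at 0 for Abca1.

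Cells were clustered without the 10 genes, and clusters were named from marker genes. The large classes were endothelial-like (470 cells, at least 49 per mouse), T-cell-like (21.97% of all cells, 20 to 80 per mouse), B-cell-like (17.07%, 23 to 55 per mouse) and KC-like (16.12%, 24 to 53 per mouse). There were 42 cells of a joint class of monocyte-derived macrophages and dendritic cells (MoMac/DC-like), 38 NK-like, 35 hepatocyte-like, 30 erythrocyte-like, 23 neutrophil-like and 21 plasmacytoid dendritic cell-like (pDC-like) cells. In the clusters of the KC-like, endothelial-like and hepatocyte-like classes all markers of the class were above the other cells. In the MoMac/DC-like cluster 8 of 10 were. The mean level of the MoMac/DC markers was 3.82 in that class and 3.84 in pDC-like cells, so it did not set these classes apart. Markers of one class were also read in the others: in KC-like cells 79.1% of the pairs of a cell and an endothelial marker had RPKM of at least 1, at a mean level of 3.07 against 8.17 in endothelial-like cells. A pair of mice stood apart. HFD2 had the fewest detected genes, a median of 1595.5 per cell against 2363.5 to 3163 in the others. In endothelial-like cells of HFD3 the KC markers reached a median of 9.67% of their mean RPKM in KC-like cells, against 0.414% to 1.37% in the other 5 mice. With 16 clusters in place of 15, a cluster of 48 cells was set apart that had no name, led by genes of hepatocytes (Ttr, Apoa2, Apoa1), endothelium (Gpihbp1, Clec4g) and KCs (C1qc). Of these cells 18 came from ND1 and 19 from HFD3, against 0 to 4 from each other mouse, and the endothelial-like cells of HFD3 went from 49 to 31. The endothelial-like values of HFD3 below include such cells. Each member is set beside marker RNA below.

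Promoter sequence was available for 5 of the 10 members, Cd36, Pparg, Plin2, Abca1 and Apoe, from RefSeq on GRCm38.p6. The 250 bases before an annotated transcript start are printed for Cd36, Plin2 and Abca1, the members whose levels did not overlap between diets in endothelial-like or KC-like cells, and for Apoe, the member with the highest level. Capitals mark matches to the motif of nuclear receptors, AGGTCA, also as a pair spaced by 4 bases (the arrangement that LXR, the sterol-sensing receptor, is known to bind) or by 1 base (that of PPAR), with up to 3 mismatches over a pair, and to a TATA box (TATAAA), a GC box (GGGCGG) and an E-box (CACGTG), on either strand. Each sequence runs 5′ to 3′ on the strand of the gene, here the minus strand.
Cd36, chr5:17835897-17836146: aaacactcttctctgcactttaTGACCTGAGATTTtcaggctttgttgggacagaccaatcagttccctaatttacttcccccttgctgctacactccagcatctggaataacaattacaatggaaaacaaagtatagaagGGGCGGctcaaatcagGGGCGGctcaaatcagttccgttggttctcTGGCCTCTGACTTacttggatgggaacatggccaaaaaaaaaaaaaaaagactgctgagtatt
Plin2, chr4:86670060-86670309: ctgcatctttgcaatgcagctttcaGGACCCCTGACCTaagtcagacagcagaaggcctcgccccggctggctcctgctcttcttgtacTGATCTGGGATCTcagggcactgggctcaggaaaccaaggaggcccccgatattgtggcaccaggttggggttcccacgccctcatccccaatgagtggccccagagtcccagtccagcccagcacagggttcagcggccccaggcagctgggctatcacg
Abca1, chr4:53159896-53160145: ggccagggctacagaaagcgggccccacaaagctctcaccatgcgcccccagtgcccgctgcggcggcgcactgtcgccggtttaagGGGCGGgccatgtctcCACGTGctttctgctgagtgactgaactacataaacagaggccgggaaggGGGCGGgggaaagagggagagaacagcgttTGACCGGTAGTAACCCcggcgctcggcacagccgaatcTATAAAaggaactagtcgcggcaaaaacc
Apoe, chr7:19699189-19699438: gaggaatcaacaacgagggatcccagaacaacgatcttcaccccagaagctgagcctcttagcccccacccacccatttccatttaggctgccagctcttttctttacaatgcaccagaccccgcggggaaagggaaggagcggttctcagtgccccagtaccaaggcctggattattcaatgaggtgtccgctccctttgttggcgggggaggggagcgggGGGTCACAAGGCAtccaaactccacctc

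The Abca1 window held a pair of AGGTCA motifs 4 bases apart at positions -67 to -52 from the start, on the other strand and with 3 mismatches, and was the only 1 of the 4 with a TATA box, at -29 to -24. The Cd36 window had pairs 1 base apart at -228 to -216 and -63 to -51, the second with 2 mismatches, and a GC box at -109 and again at -93. The Plin2 window had such pairs at -225 to -213 and -161 to -149, and the Apoe window had 1 at -28 to -16. These arrangements are common: of 32851 promoter windows of this length, 18.51% held a pair 4 bases apart and 21.29% a pair 1 base apart at this tolerance, 14.02% held AGGTCA, 32.74% a GC box, 12.37% a TATA box and 6.02% the E-box. An AP-1 motif, TGANTCA, was also searched, and it was in 6.75% of windows and in none of the 4 printed. The single motif and the pairs overlap by construction. A match is a description of the letters, and no binding was measured here. Apoe and Apoc1 lie 3584 bases apart on chromosome 7 (GRCm38, 19696244 to 19701310 and 19689480 to 19692659). The other members lie apart, Cd36 at 17781690 to 17888959 on chromosome 5, Lpl at 68880555 to 68906932 on chromosome 8, Gpihbp1 at 75596630 to 75598213 on chromosome 15, Plin2 at 86626910 to 86670217 Abca1 at 53030789 to 53159988 on chromosome 4, Fabp4 at 10204342 to 10208616 on chromosome 3, Pparg at 115360879 to 115490404 on chromosome 6 and Abcg1 at 31057694 to 31117984 on chromosome 17. The span of Plin2 overlaps that of the gene Gm12551, which was not among the gene rows. Whether exons of the 2 genes overlap was not examined.

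**Figure D1:**
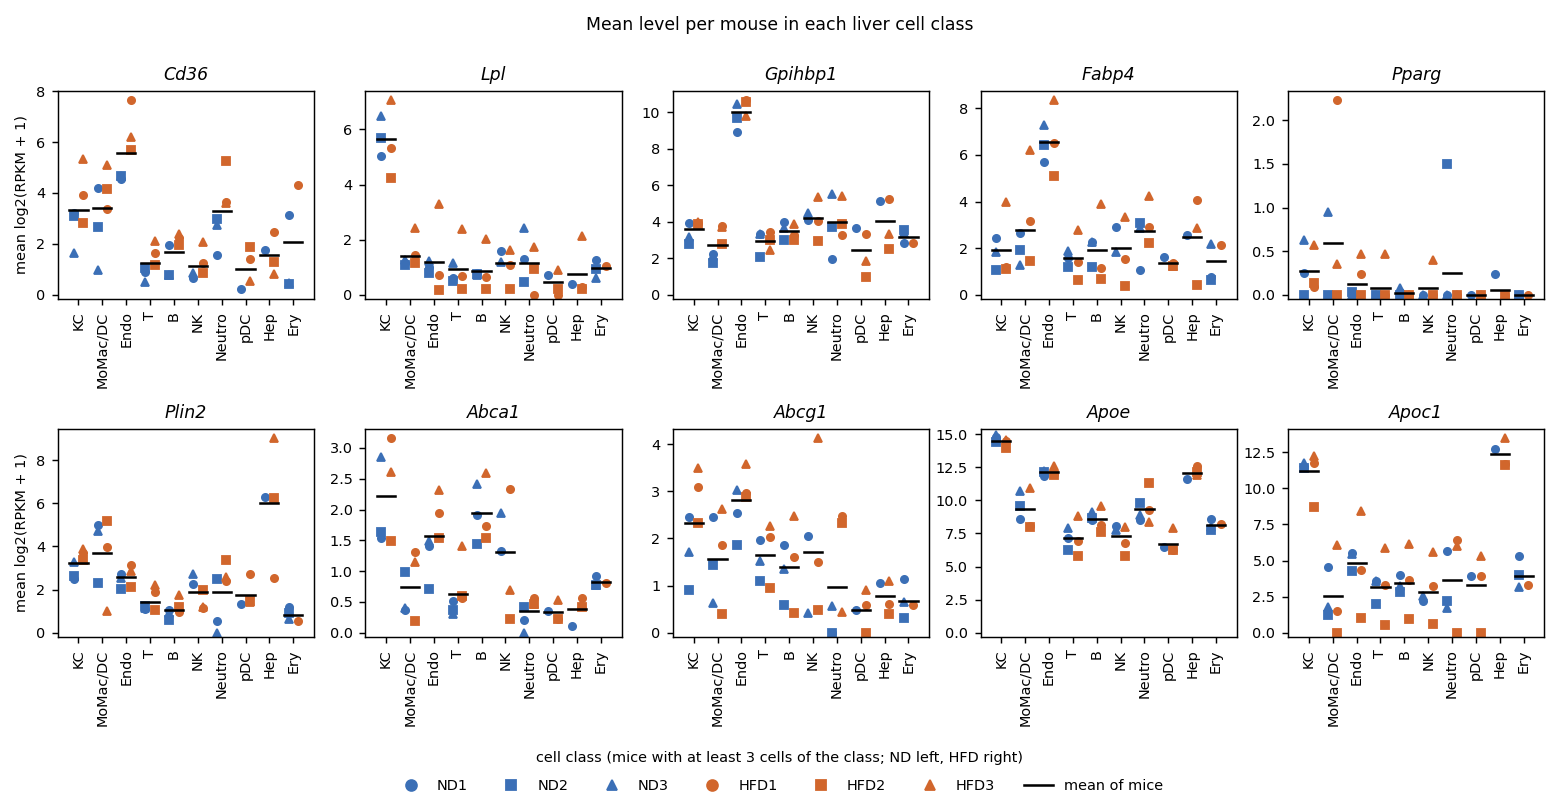
Mean log2(RPKM + 1) of each member (vertical axis) in each of 10 cell classes (horizontal axis), with 1 point per mouse holding at least 3 cells of the class (ND blue at left, HFD orange at right) and a line at the mean of the mice. Gpihbp1 (mean 10.004) and Fabp4 (6.57) stand highest in endothelial-like cells, Lpl (5.64) and Apoe (14.51) in KC-like cells, and Apoc1 (12.37) in hepatocyte-like cells.

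The question of the class comparisons was which liver cells carry each step of lipid handling. The uptake genes split between endothelial-like and KC-like cells. Gpihbp1, Fabp4 and Cd36 were higher in endothelial-like than in KC-like cells, with KC-like minus endothelial-like differences of -6.39, -4.64 and -2.24 on the log2 scale, and Lpl was higher in KC-like cells by 4.44. The apolipoproteins were higher in KC-like cells, Apoe by 2.399 and Apoc1 by 6.38. Each comparison was tested with limma on the difference within each of the 6 mice. The 9 members other than Pparg passed the filter (a mean of at least 1), and of these 5 were higher and 3 lower in KC-like cells at an adjusted p under 0.05, while 52.8% of the 3879 genes tested were called, 17.9% higher and 34.9% lower. Against MoMac/DC-like cells 4 of 9 members were higher and 0 lower in KC-like cells (5.08% and 42.5% of all genes, 47.6% in all). Gpihbp1 also passed with 10 principal components (1.44, adjusted p = 0.00969), and Abcg1 in the KC-like cells of lower endothelial marker level (1.18, adjusted p = 0.0473). Against T- and B-cell-like cells averaged, 7 were higher and 0 lower in KC-like cells (19.1% and 42.2%, 61.3% in all). With classes set by the share of markers detected, 3 of these 7 calls were lost, those of Cd36 (1.18, adjusted p = 0.058), Abca1 (0.01, adjusted p = 0.989) and Abcg1 (0.32, adjusted p = 0.662). Against the same lymphocytes 7 were higher and 0 lower in endothelial-like cells (27.3% and 29.2%, 56.4% in all). The classes came from the other genes of the same cells, and markers of one class were read in others. The median difference of all genes was -0.264 for KC-like minus endothelial-like, -0.960 against MoMac/DC-like and -0.349 against lymphocyte-like cells, and it was -0.0654 for endothelial-like minus lymphocyte-like cells.

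In endothelial-like cells the level of Cd36 was 4.56, 4.66 and 4.68 in ND1, ND2 and ND3 and 7.65, 5.67 and 6.21 in HFD1, HFD2 and HFD3. In KC-like cells it was 3.21, 3.08 and 1.66 on ND and 3.91, 2.81 and 5.32 on HFD, so that every mouse had less Cd36 in its KC-like than in its endothelial-like cells (difference -2.24 ± 0.32 SE, n = 6 mice, limma adjusted p = 1.285e-05). Cd36 was detected at RPKM of at least 1 in 83.8% of endothelial-like cells and 75.1% of KC-like cells. The level in MoMac/DC-like cells, 3.41 ± 1.46 (SD, n = 6 mice), and in neutrophil-like cells, 3.29 ± 1.23, did not differ from that of KC-like cells, 3.33 ± 1.22, beyond the spread between mice (difference between KC-like and MoMac/DC-like cells -0.08, 95% interval -0.97 to 0.81). In lymphocytes Cd36 was low, at 1.23 in T-cell-like and 1.67 in B-cell-like cells. As a median over mice, the mean Cd36 RPKM in T-cell-like cells was 0.954% of that in endothelial-like cells, beside 0.775% for the endothelial markers. Marker percentages here and below are medians over the markers of a class. In KC-like cells Cd36 was at 15.3% to 54.04%, above the marker median of 1.09% to 3.80% in 6 of 6 mice. Single endothelial markers in KC-like cells, as medians over mice, ran from 1.21% to 53.2%. The Cd36 median of 20.3% lay within that spread.

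Lpl, the lipase, was read mainly in KC-like cells. Its level there was 5.04, 5.69 and 6.50 on ND and 5.31, 4.23 and 7.06 on HFD, the lowest in HFD2 and the highest in HFD3, and 76.8% of KC-like cells had RPKM of at least 1. It was 1.41 ± 0.50 in MoMac/DC-like cells, and the difference of 4.23 ± 0.43 (SE) had a limma adjusted p = 4.282e-08. In endothelial-like cells the levels were 0.99, 0.80 and 1.23 on ND and 0.72, 0.16 and 3.30 on HFD. HFD3 stood far above the other 5 mice. In that mouse Lpl in endothelial-like cells was 9.94% of its mean RPKM in KC-like cells, beside 9.67% for the KC markers, and in HFD2 it was 0.168%, beside 0.499%. The difference in Lpl between endothelial-like and lymphocyte-like cells missed the threshold (0.32, 95% interval -0.09 to 0.72, adjusted p = 0.1796), and with RPKM averaged before the logarithm it passed (1.16, adjusted p = 0.0122). Within mice, endothelial-like cells with more KC marker RNA had more Lpl, with a mean Pearson r over cells of 0.585 (positive in 6 of 6 mice, 470 cells that share libraries and depth). The part of this RNA in the endothelial level was not tested beyond these values.

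Gpihbp1, whose product holds the lipase at the endothelium, had levels of 8.89, 9.68 and 10.43 on ND and 10.69, 10.58 and 9.76 on HFD in endothelial-like cells, where 97.2% of cells had RPKM of at least 1. The diets overlapped. This was 6.80 ± 0.25 (SE) above the lymphocyte-like cells (adjusted p = 3.91e-15). The mean levels of the other 9 classes ran from 2.46 to 4.18, and no neighbours in that order differed beyond the spread between mice. In KC-like cells the levels ran from 2.78 to 3.98, and the mean RPKM was 0.906% to 4.33% of the endothelial one, beside 1.09% to 3.80% for the endothelial markers. In T- and B-cell-like cells the medians were 0.774% and 1.201%, beside 0.775% and 1.10%. The share of Gpihbp1 in these classes was thus like that of the marker genes.

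Fabp4, the fatty acid carrier, reached 5.70, 6.43 and 7.31 on ND and 6.51, 5.12 and 8.36 on HFD in endothelial-like cells, again lowest in HFD2 and highest in HFD3. The difference from KC-like cells was -4.64 ± 0.28 (SE, adjusted p = 3.981e-10) and held in 6 of 6 mice. In MoMac/DC-like cells Fabp4 ranged from 1.25 to 6.23, the latter in HFD3, and the difference between KC-like cells (1.93) and this class (2.77) missed the threshold (-0.85, 95% interval -1.78 to 0.08, adjusted p = 0.1164). Its RPKM was 0.822% of the endothelial one in T-cell-like and 0.992% in B-cell-like cells, close to the markers. In KC-like cells it was 9.26%, 0.553% and 4.76% on ND and 1.004%, 19.8% and 2.79% on HFD, above the endothelial markers (1.09% to 3.80%) in 3 of 6 mice, and in MoMac/DC-like cells the median was 7.79%, beside 0.844% for the markers. Between KC-like and lymphocyte-like cells neither Fabp4 (0.19, 95% interval -0.24 to 0.61) nor Gpihbp1 (0.41, 95% interval -0.03 to 0.85) passed, though with 10 principal components both did (0.48 and 0.94, adjusted p = 0.048 and 0.00354). Fabp4 also passed with RPKM averaged before the logarithm (1.70, adjusted p = 0.0329), and Gpihbp1 without ND3 (0.55, adjusted p = 0.0474).

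**Figure D2:**
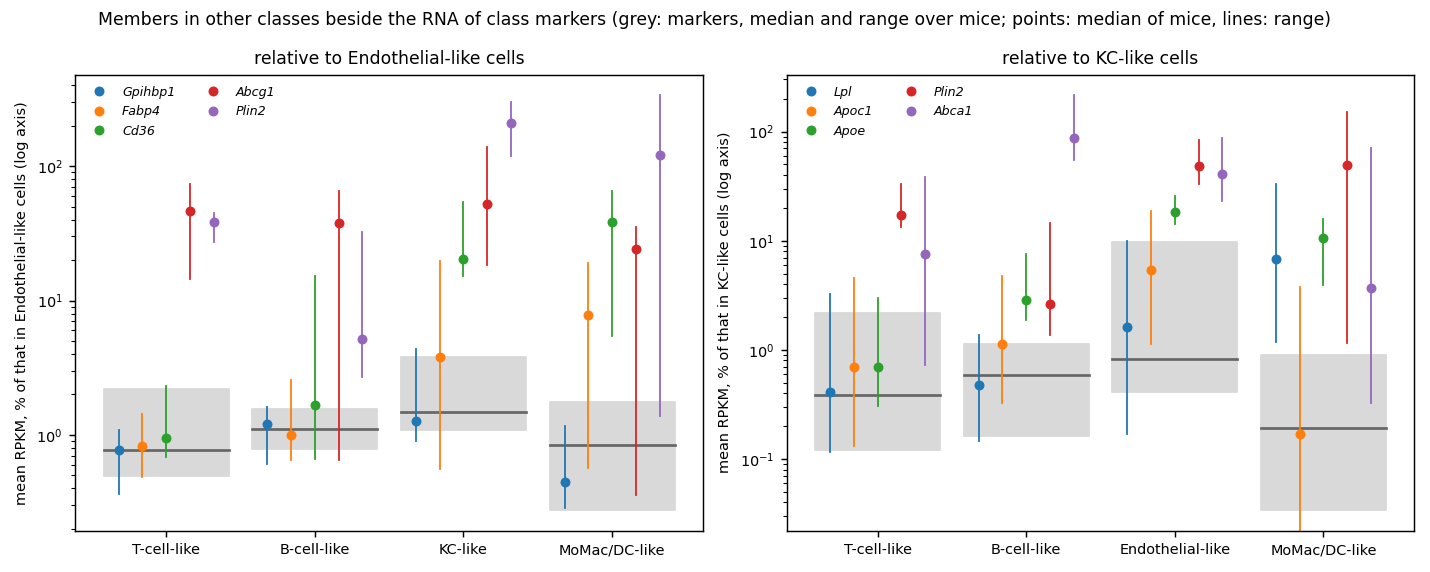
Mean RPKM of members in a class as a percentage (log axis) of that in endothelial-like cells (left) or KC-like cells (right), as the median over mice with the range, beside the class markers (grey line, median; grey box, range over mice). The grey range is that of the median over the markers. In T-cell-like cells Gpihbp1 (0.774%) and Fabp4 (0.822%) lie within it (0.496% to 2.19%). Cd36 in KC-like cells (15.3% to 54.04%) lies above it (1.09% to 3.80%), though single endothelial markers there reached 53.2%.

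Of the storage genes, Pparg was near the limit of detection. It had RPKM of at least 1 in 6.33% of KC-like cells, 10 of 470 endothelial-like cells, 5 of 42 MoMac/DC-like cells and 1 of 35 hepatocyte-like cells, and it stayed under the filter in every comparison. Its highest level was 2.23, in the MoMac/DC-like cells of HFD1. Plin2, the droplet coat, had its highest mean in hepatocyte-like cells, 6.03 ± 2.65 (SD, n = 4 mice), with a range of 2.55 to 9.02 that overlapped most classes. In KC-like cells it was 2.51, 2.62 and 3.26 on ND and 3.72, 3.37 and 3.86 on HFD. In endothelial-like cells it was 2.73, 2.03 and 2.52 on ND and 3.15, 2.12 and 2.88 on HFD. Plin2 was higher in KC-like than in endothelial-like cells by 0.65 ± 0.23 (SE, limma adjusted p = 0.02282), in 5 of 6 mice. The call was lost when cells were rescaled to an equal sum (0.47, adjusted p = 0.0995). It was also lost in KC-like cells of lower endothelial marker level (0.73, adjusted p = 0.0603). Leaving out any of the mice ND3, HFD2 or HFD3 lost it as well (adjusted p = 0.0558 to 0.0803). The direction turned when classes were set by the share of markers detected (-0.07, adjusted p = 0.902). Both classes lay above lymphocyte-like cells, by 1.97 (adjusted p = 4.169e-07) and 1.32 (adjusted p = 4.336e-06). In MoMac/DC-like cells Plin2 ranged from 1.01 to 5.17.

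Of the efflux transporters, Abca1 was 1.54, 1.64 and 2.86 on ND and 3.16, 1.495 and 2.62 on HFD in KC-like cells, with both diets spread over the same range. It lay 1.48 ± 0.42 (SE) above MoMac/DC-like cells (adjusted p = 0.006418, higher in 6 of 6 mice). Against endothelial-like cells the difference was 0.65 ± 0.24 (limma adjusted p = 0.02856). This call was lost on rescaling (0.51, adjusted p = 0.0890) and without the filter (adjusted p = 0.08). Adding 0.1 in place of 1 before the logarithm also lost it (0.80, adjusted p = 0.0601). So did leaving out any of the mice ND2, ND3 or HFD1 (adjusted p = 0.0693 to 0.117). With classes set by the share of markers the direction turned (-0.06, adjusted p = 0.897). The Abca1 level of B-cell-like cells, 1.94 ± 0.47, lay within the spread between mice of that of KC-like cells, 2.22 ± 0.74 (SD, n = 6 mice). The RPKM in B-cell-like cells was 88.1% of that in KC-like cells, beside 0.594% for the KC markers, while T-cell-like cells had a level of 0.62 ± 0.40. Abcg1 was 2.81 ± 0.57 in endothelial-like and 2.33 ± 0.94 in KC-like cells. The difference of -0.48 missed the threshold (95% interval -0.97 to 0.02, adjusted p = 0.0964) and passed it after rescaling (-0.74, adjusted p = 0.0162). Both were above lymphocyte-like cells, by 1.30 (adjusted p = 1.626e-05) and 0.82 (adjusted p = 0.006168). With classes set by the share of markers both calls were lost (0.70 and 0.32, adjusted p = 0.111 and 0.662), and that of KC-like cells also with RPKM averaged before the logarithm (adjusted p = 0.112).

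The apolipoproteins were the most abundant members. Apoe in KC-like cells was 14.76, 14.43 and 14.96 on ND and 14.45, 13.93 and 14.54 on HFD, a mean of 31836 RPKM, and in endothelial-like cells it was 11.88, 12.15 and 12.21 on ND and 11.97, 11.92 and 12.56 on HFD. KC-like cells were the higher class in 6 of 6 mice (2.399 ± 0.21 SE, adjusted p = 5.138e-08), though with classes set by the share of markers the difference was 0.79 (adjusted p = 0.162). Endothelial-like and hepatocyte-like cells (12.05 ± 0.41) did not differ beyond the spread between mice, and all 3 classes were above the rest. In endothelial-like cells the RPKM of Apoe was 14.3% to 25.8% of that in KC-like cells, above the KC markers in 6 of 6 mice. In T-cell-like cells it was 0.703% as a median, beside 0.386% for the markers, and in B-cell-like cells 2.84%, beside 0.594%. Apoe was read in all 470 endothelial-like and in 99.7% of T-cell-like cells, so detection alone did not separate classes.

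Apoc1 had its highest mean level in hepatocyte-like cells (12.37 ± 0.88), then in KC-like cells, where it was 11.51, 11.43 and 11.75 on ND and 11.72, 8.72 and 12.21 on HFD. HFD2 was the low mouse in KC-like cells. The KC-like level was above MoMac/DC-like cells by 8.71 ± 0.52 (SE, adjusted p = 3.771e-12). Its RPKM in KC-like cells was 45.2% to 86.02% of the hepatocyte-like one in the 6 mice, beside 9.70% to 103.5% for hepatocyte markers (median 24.2%). The markers were above Apoc1 in ND3 (103.5% against 45.2%) and in HFD3 (72.0% against 51.6%), and below it in the other 4 mice. ND2 and ND3 had only 2 and 1 hepatocyte-like cells, so their values rest on those cells, and HFD3 had 4. How much of the Apoc1 RNA in KC-like cells came from hepatocytes was not tested. Over the KC-like cells within a mouse Apoc1 varied with the KC markers (mean r = 0.466, positive in 6 of 6 mice) and less with the hepatocyte markers (mean r = 0.221, 6 of 6). In endothelial-like cells Apoc1 was 5.54, 4.28 and 5.44 on ND and 4.36, 1.05 and 8.41 on HFD, the widest range of any member in that class, with HFD2 lowest and HFD3 highest. The hepatocyte markers had the same extremes there, at mean levels of 1.78 in HFD2 and 6.12 in HFD3 against 3.40 to 5.18 in the other 4 mice.

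The diet comparison asked whether the members changed with the high-fat diet in the KCs, the endothelium and the lymphocytes. No member passed the threshold in any of the 4 classes (limma adjusted p of at least 0.9983). Of all genes 1 of 3220 was called in KC-like cells (0.0311%). In the endothelial-like, T-cell-like and B-cell-like classes 0 of 4263, 0 of 4371 and 0 of 3667 were called (0.0% each). An unadjusted limma p under 0.05 was reached by 88 genes in KC-like cells (2.73%). In the other classes, in the same order, 62, 165 and 93 genes reached it (1.45%, 3.78% and 2.54%). The levels of the 2 diets did not overlap for 2 of 9 tested members in endothelial-like cells, 1 of 9 in KC-like, 1 of 7 in T-cell-like and 0 of 8 in B-cell-like cells, each with HFD higher. Over all genes they did not overlap for 4.53% in endothelial-like cells (0.938% with HFD higher, 3.59% lower), 7.61% in KC-like (0.528% and 7.08%), 7.69% in T-cell-like (0.297% and 7.39%) and 8.15% in B-cell-like cells (0.245% and 7.91%). The called gene was Serpina1e, a plasma protease inhibitor gene of hepatocytes, with a difference of -3.64 (adjusted p = 0.0481), and it is named after its value was seen. With 3 mice against 3, a difference of 1 on the log2 scale was not detectable in simulations. Each simulation shifted 200 genes at once on independent noise, so it does not give the reach for 1 gene shifted alone. In the endothelial-like comparison with 4263 genes, 0% of genes shifted by 1, 51.5% shifted by 2 and 99% shifted by 4 were called. In KC-like cells with 3220 genes the shares were 0%, 50.5% and 90%.

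**Figure D3:**
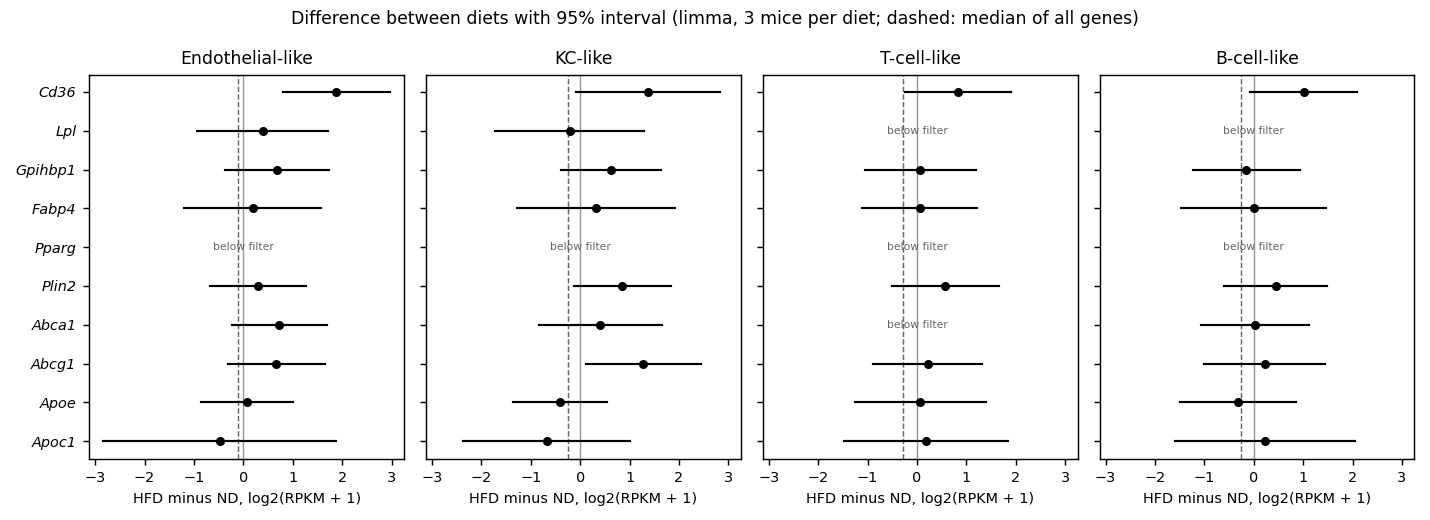
Difference between diets (HFD minus ND, log2(RPKM + 1), horizontal axis) of each member in 4 cell classes with its 95% interval from limma on 3 mice per diet, and the median of all genes (dashed line). Cd36 is shifted to the right in each class, with an interval of 0.80 to 2.96 in endothelial-like cells, and no member passed the adjusted threshold.

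Cd36 in endothelial-like cells had the largest difference of the members. All 3 HFD mice (7.65, 5.67 and 6.21) were above all 3 ND mice (4.56 to 4.68), which lay close together. In RPKM the means were 145.08, 236 and 107 on ND and 443, 348.05 and 282.5 on HFD, and the share of cells with RPKM of at least 1 was 75.8% to 81.1% on ND and 82% to 97% on HFD. The difference was 1.88 ± 0.51 (SE, 95% interval 0.80 to 2.96, unadjusted limma p = 0.001823, adjusted p = 0.9993). By its p it was 5th of 4263 genes. Without HFD3, the mouse with the most KC marker RNA in its endothelial-like cells, the difference was 2.03 with an adjusted p = 0.0144, and Cd36 was the 1 gene called higher while 36 were called lower. Without the 48 mixed cells it was 2.003 (adjusted p = 0.525). Over the alternatives the difference ranged from 1.19 to 2.30 and the adjusted p from 0.0144 to 1.0.

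The mean log2 level of Cd36 was also higher on HFD in the other 3 classes, though no difference passed. In KC-like cells the difference was 1.36 (95% interval -0.09 to 2.82), with HFD2 at 2.81 under 2 of the ND mice. It was 0.71 without HFD3 and 0.87 without ND3. T-cell-like cells had 0.91, 1.03 and 0.50 on ND and 1.65, 1.16 and 2.12 on HFD, without overlap. That difference was 0.83 (95% interval -0.24 to 1.90). B-cell-like cells had 1.94, 0.79 and 0.78 on ND and 2.21, 1.94 and 2.39 on HFD, a difference of 1.01 (95% interval -0.08 to 2.10). In mean RPKM they had 22.04, 1.56 and 1.48 on ND and 9.72, 5.34 and 5.16 on HFD, so that on this scale ND1 was the highest of the 6 mice and the ND mean was not the lower. In ND1 the RPKM of Cd36 in B-cell-like cells was 15.2% of the endothelial one, beside 1.56% for the endothelial markers, and in the other 5 mice it was 0.662% to 2.19%. The 4 classes come from the same 6 mice and are not independent. In T-cell-like cells the Cd36 RPKM was 0.683% to 2.30% of the endothelial one in each mouse, beside 0.496% to 2.19% for the endothelial markers. Whether the diet difference in Cd36 differed between KC-like and endothelial-like cells was tested directly, and it was -0.52 (95% interval -1.91 to 0.88, adjusted p = 0.9989, 0.0% of 3879 genes called and 3.27% at an unadjusted p under 0.05). For that difference 0 of 9 members were without overlap between diets, beside 8.17% of all genes (2.27% higher and 5.9% lower).

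Plin2 was the member without overlap in KC-like cells. The ND mice had 2.51, 2.62 and 3.26 and the HFD mice 3.72, 3.37 and 3.86, a difference of 0.85 (95% interval -0.12 to 1.83, unadjusted limma p = 0.0799). The share of cells with Plin2 was 44.2% to 51.3% on ND and 51.6% to 78.9% on HFD, while the mean RPKM overlapped, at 103.5 to 166.8 on ND and 147.3 to 190.03 on HFD. In the KC-like cells with less endothelial marker RNA the difference was -0.28. Of the members, Abcg1 had the smallest unadjusted limma p in KC-like cells, 0.03425, which was 60th of 3220 genes. Its levels were 2.46, 0.90 and 1.71 on ND and 3.09, 2.33 and 3.49 on HFD. The diets overlapped, since HFD2 was under ND1, and the difference was 1.28 (95% interval 0.11 to 2.45, adjusted p = 0.9983).

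Abca1 was the other member without overlap in endothelial-like cells, with 1.41, 0.71 and 1.48 on ND and 1.94, 1.53 and 2.31 on HFD. ND3 and HFD2 lay next to each other. The difference was 0.72 (95% interval -0.24 to 1.69, unadjusted limma p = 0.1313). Abcg1, with 2.53, 1.87 and 3.03 on ND and 2.97, 2.89 and 3.57 on HFD, and Gpihbp1 overlapped, with differences of 0.67 (95% interval -0.32 to 1.65) and 0.68 (95% interval -0.37 to 1.72). Without ND2 Abcg1 was at 0.36 and Abca1 at 0.48, and Gpihbp1 was at 0.29 without ND1 and 1.06 without ND3. Apoe differed by 0.07 in endothelial-like cells (95% interval -0.86 to 1.004) and by -0.41 in KC-like cells (95% interval -1.37 to 0.55), and the endothelial-like value was -0.03 without ND1 and -0.13 without HFD3, and the KC-like one -0.22 without HFD2. Lpl differed by -0.21 in KC-like cells (95% interval -1.72 to 1.29), and its sign turned on single mice, with 0.44 without HFD2, 0.16 without ND3 and -0.97 without HFD3.

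Apoc1 in endothelial-like cells turned on single mice. The difference between diets was -0.48 (95% interval -2.83 to 1.88). Without HFD3 it was -2.38 with an adjusted p = 0.00168, and without HFD2 it was 1.30. In KC-like cells Apoc1 differed by -0.68 (95% interval -2.37 to 1.01), with 0.40 without HFD2 and -1.34 without HFD3. Fabp4 turned in the same way, with 0.19 in endothelial-like cells (95% interval -1.20 to 1.57), 0.96 without HFD2 and -0.66 without HFD3, and with 0.32 in KC-like cells (95% interval -1.29 to 1.92), 0.80 without HFD2 and -0.62 without HFD3. Abca1 in KC-like cells differed by 0.41 (95% interval -0.83 to 1.65), with 0.04 to 0.87 on leaving out 1 mouse. The levels of hepatocyte and KC markers in the endothelial-like cells moved with Apoc1, as given above. In KC-like cells the hepatocyte marker level was also lowest in HFD2 (3.65) and highest in HFD3 (7.36), against 6.31 to 6.91 in the other mice. The part of such RNA in the Apoc1 differences was not tested. The median difference over the 9 tested members was 0.39 in endothelial-like and 0.41 in KC-like cells, beside -0.107 and -0.251 over all genes. In T-cell-like cells (7 members) and B-cell-like cells (8 members) it was 0.17 and 0.12, beside -0.292 and -0.267.

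**Figure D4:**
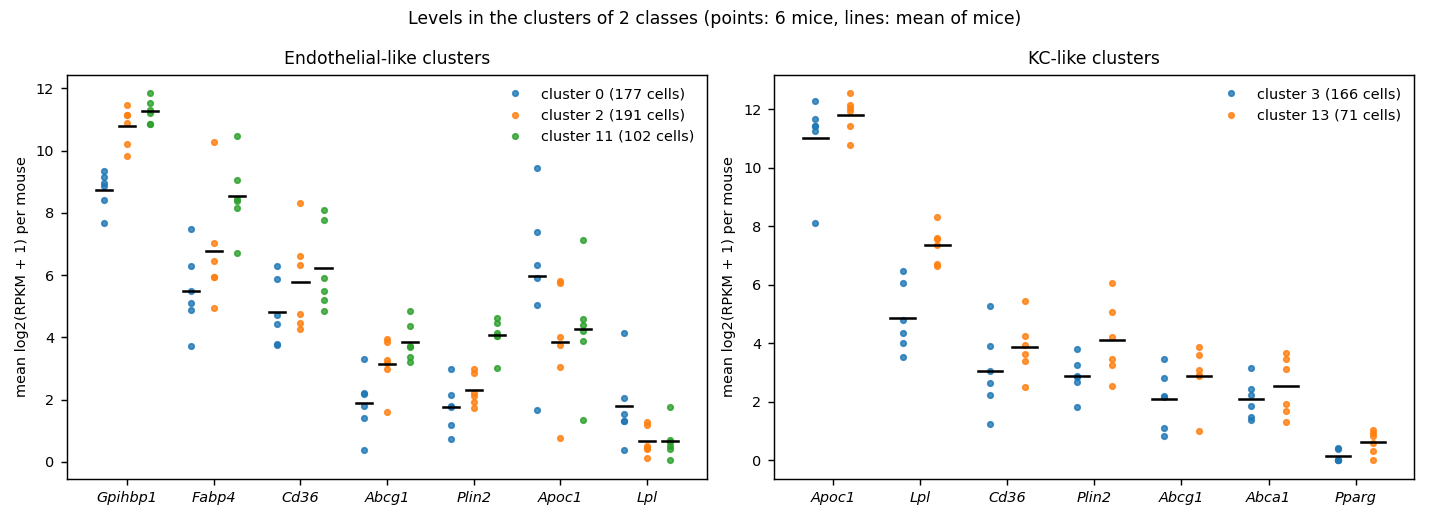
Mean log2(RPKM + 1) per mouse (vertical axis) of members in the 3 endothelial-like clusters (left) and the 2 KC-like clusters (right), with 1 point per mouse and a line at the mean of the mice. Cluster 11 has the highest Fabp4 (8.53) and Plin2 (4.06) of the endothelial-like clusters, and cluster 13 more Lpl (7.36) than cluster 3 (4.87).

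Within a class the members were not evenly spread. The clusters below were found without the members and are described with no test. The endothelial-like cells formed cluster 0 (37.66% of the class), cluster 2 (40.64%) and cluster 11 (21.7%, 4 to 28 cells per mouse). Cluster 11 had the most Fabp4, 8.53 against 6.77 and 5.49, the most Abcg1, 3.86 against 3.13 and 1.88, and the most Plin2, 4.06 against 2.30 and 1.78. Over the 6 mice Plin2 lay between 3.03 and 4.63 in cluster 11 and between 1.73 and 2.9996 in cluster 2, without overlap. The ranges of Fabp4 overlapped, at 6.72 to 10.47 in cluster 11 and 4.95 to 10.29 in cluster 2. Those of Abcg1 did too, at 3.20 to 4.83 and 1.59 to 3.93. Cluster 11 also had the most detected genes, a median of 3289 against 2523 and 2360. Cluster 0 had the lowest Gpihbp1, 8.74 against 10.77 and 11.26, the highest Lpl, 1.79 against 0.67 in both others, and a mean hepatocyte marker level of 5.59 against 2.88 and 2.86.

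In cluster 2, Cd36 was 4.74, 4.45 and 4.26 on ND and 8.31, 6.32 and 6.61 on HFD. In cluster 11 it was 4.84, 5.22 and 5.91 on ND and 7.77, 5.48 and 8.11 on HFD. In cluster 0 it was 4.43, 4.71 and 3.78 on ND and 6.28, 3.76 and 5.86 on HFD. The diets did not overlap in cluster 2 alone. HFD2 was the lowest HFD mouse in each of the 3 clusters.

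Zone along the sinusoid was read from endothelial markers of the periportal end (5 genes in the table) and of the pericentral end (7 genes), blood flowing from the first to the second. Over the endothelial-like cells of a mouse, Cd36 varied with the periportal minus pericentral level (mean r = 0.294, positive in 6 of 6 mice), and so did Apoe (mean r = 0.222, 6 of 6) and Gpihbp1 (mean r = 0.150, 6 of 6). Fabp4 went the other way (mean r = -0.207, negative in 5 of 6 mice). Cd36 and Gpihbp1 varied together (mean r = 0.2003, 6 of 6), although both also varied with the number of genes detected in a cell (mean r = 0.149 and 0.267). These are descriptions over 470 cells that share libraries. The periportal marker level of endothelial-like cells was 2.52, 2.45 and 2.79 on ND and 3.33, 2.68 and 2.74 on HFD, and the pericentral one was 2.42, 1.81 and 2.72 on ND and 2.45, 2.07 and 1.41 on HFD. The diets overlapped in both, and 4 of 5 periportal and 5 of 7 pericentral markers had a median of 0 over these cells, so that few genes carry each level. Their part in the diet difference of Cd36 was not tested.

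The KC-like cells formed cluster 3 and cluster 13 (71 cells, 7 to 15 per mouse). Cluster 13 had more Lpl, 7.36 against 4.87, with 6.66 to 8.31 over the mice against 3.52 to 6.48, and more Plin2, 4.11 against 2.88. It also had more Timd4, the phosphatidylserine receptor of resident KCs, 5.99 against 4.60, and more Pparg, 0.62 against 0.14, and 2901 detected genes against 2116.5. Timd4 is among the genes that defined the clusters. Plin2 in cluster 13 was 4.22, 2.53 and 3.27 on ND and 3.47, 5.08 and 6.07 on HFD, and in cluster 3 it was 1.81, 2.69 and 3.25 on ND and 3.80, 2.87 and 2.85 on HFD. The diets overlapped in both clusters.

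A further 60 genes of lipoprotein uptake, lipolysis, storage, efflux and their regulation were listed, of which 53 were in the table. None of them was called between diets in the 4 classes, in 14 to 22 tested genes per class. Between KC-like and endothelial-like cells 13 of 22 tested genes were higher and 3 lower (17.9% and 34.9% of all genes), with a median difference of 1.06 beside -0.264 for all genes. Pltp, the phospholipid transfer protein of plasma, was higher in KC-like cells by 6.05 ± 0.32 (SE, adjusted p = 1.106e-10), and Lrp1, an endocytic receptor for ApoE-bearing remnants, by 4.52 ± 0.28 (adjusted p = 5.748e-10). Npc2, which acts in the export of cholesterol from lysosomes, was higher by 3.26 ± 0.22 (limma adjusted p = 1.522e-09). Mgll, the monoacylglycerol lipase, was lower in KC-like cells (-3.35), as were Mylip, a ubiquitin ligase (-3.15), and Fabp5, another fatty acid carrier (-1.46). Each of the 6 genes had the same direction in 6 of 6 mice.

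Against MoMac/DC-like cells 9 of 27 listed genes were higher in KC-like cells and 8 lower (5.08% and 42.5% of all genes). Nr1h3, which encodes the sterol-sensing receptor LXRα, was 5.06 in KC-like and 1.37 in MoMac/DC-like cells, a difference of 3.69 ± 0.42 (SE, adjusted p = 3.554e-07), and Pltp was higher by 4.87. Fabp1, the carrier of hepatocytes, was higher by 4.19, in cells that also held hepatocyte marker RNA. Srebf2, the regulator of sterol synthesis, was lower in KC-like cells (-2.98, adjusted p = 6.555e-06), and so was Lmf1, needed for the folding of lipases (-1.83). Against lymphocyte-like cells 15 of 21 genes were higher and 2 lower in KC-like cells (19.1% and 42.2% of all genes), and 9 of 19 were higher and 2 lower in endothelial-like cells (27.3% and 29.2%). Mgll, Mylip and Scarb1, the HDL receptor, led the second comparison, at 3.66, 2.31 and 1.82 higher in endothelial-like cells, and Srebf2 was lower in both comparisons (-1.504 in KC-like and -1.38 in endothelial-like cells). The other genes called lower were Mylip in KC-like cells (-0.84, lower in 4 of 6 mice) and Srebf1 in endothelial-like cells (-0.44).

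Genes with the most similar pattern were sought over 53 points, each the mean of a class in a mouse with at least 3 cells. Lpl was closest to Vsig4, Siglec1 and Cd5l, genes of KCs (Pearson r = 0.938, 0.937 and 0.927), and Gpihbp1 to Egfl7, Ptprb and Hspg2, genes of endothelium (r = 0.955, 0.946 and 0.936). Fabp4 was closest to Sdpr (r = 0.842), and Gpihbp1 was the second on its list (r = 0.831). Apoe was closest to Hpgd (r = 0.880), and Apoc1 to Apoa2, Mup3 and Alb (r = 0.917, 0.898 and 0.882), genes of hepatocytes. Cd36 (F11r, r = 0.724), Plin2 (Alas1, r = 0.762), Abcg1 (Wbp5, r = 0.731) and Abca1 (Cd81, r = 0.689) had less similar nearest genes, and Pparg, under the filter, was nearest to Itfg3 (r = 0.609). The points share mice and libraries, and no p is given.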

How the data were processed

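Liver cells of 3 ND and 3 HFD mice were profiled by Smart-seq2. The authors aligned reads to mm10 with STAR, kept unique reads, removed poor cells and doublets (Scrublet) and deposited RPKM values of RefSeq genes. Because RPKM holds no read counts, tests for counts were not applied. The disease state label gave the mouse of every cell, and 0 columns were without a sample. P-values measure the spread between these mice.

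The members and the 60 listed genes were kept out of the 1000 variable genes. Values were centred within mice, and cells were grouped by spectral clustering (20 principal components, 15 nearest neighbours) into 15 clusters, out of 12 to 25 tried. Centring, the number of clusters and the scoring rule for names were set after clusters had been seen. A class needed 3 detected markers. log2(RPKM + 1) was averaged per mouse and fitted with limma (Benjamini-Hochberg over all genes, adjusted p under 0.05), keeping genes whose mean reached 1. Diet fits took mice having 5 or more cells of the class, and class differences within mice took those having 3 or more. Each fit was tested on simulated data with 200 shifted genes. Exon reads per cell were estimated from low values: 92.5% of 40 simulated cells came within 5%, and 60.6% of real low values were within 0.05 of a whole number of reads.

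The members and all lists were chosen with earlier results of these data known. The text names all members, up to 3 listed genes per direction with the smallest adjusted p, and the 3 genes most like each member. 1 listed gene that the rule names is not reported here. Serpina1e, Rn45s, Mir544 and 8430408G22Rik fall outside that rule and were picked once their values were known. Pseudocount, filter, averaging, trend, rescaling, class definition, principal components, the replicate block and leaving out a mouse were varied. Software was Python 3.11.15 with scikit-learn 1.9.0, and limma 3.58.1 under R 4.3.3. Positions are on GRCm38.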

Additional observations from a re-analysis of the deposited data

Results flagged for a closer look

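Of 36 sets of 6 mice examined for a mouse far from the others, 1 was set apart by Dixon's criterion, and chance alone sets apart about 1 in 20 such sets. It was Lpl in endothelial-like minus lymphocyte-like cells, which was 1.11 in HFD3 and between -0.04 and 0.29 in the other 5 mice (gap over range 0.71). The KC markers in the endothelial-like cells of HFD3 were at 9.67% of their RPKM in KC-like cells, and Lpl was at 9.94%.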

How the results depend on the processing

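With 3 mice per diet a difference under 2 on the log2 scale was mostly beyond the reach of the test, depth and mouse come together, and markers of endothelial cells, KCs and hepatocytes were read in all large classes. Each count below is of genes called. Between diets in KC-like cells the count of 1 became 0 without the filter on low values, with RPKM averaged before the logarithm, with rescaled cells, with classes by the share of markers detected, with 10 principal components, with the replicate block, without centring and in KC-like cells of lower endothelial marker level. It was 2 with a mean-variance trend (Serpina1e and Rn45s). The trend gave 1 gene in endothelial-like (8430408G22Rik), 1 in T-cell-like and 1 in B-cell-like cells (Rn45s in both). Leaving out 1 mouse gave 0 to 1 in KC-like cells (0 without ND1, ND2, ND3 or HFD1), 0 to 37 in endothelial-like cells (37 without HFD3), 0 to 1 in T-cell-like cells (1 without ND3, Mir544), 0 to 0 in B-cell-like cells and 0 to 0 for the difference between KC-like and endothelial-like cells.

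Without the filter 3635 genes were called for KC-like minus endothelial-like, 1225 for KC-like minus MoMac/DC-like, 4320 for KC-like minus lymphocyte-like and 4256 for endothelial-like minus lymphocyte-like cells. Classes by the share of markers detected gave 832 for KC-like minus endothelial-like, 425 for KC-like minus lymphocyte-like and 981 for endothelial-like minus lymphocyte-like, and RPKM averaged first gave 563 for KC-like minus MoMac/DC-like. Leaving out 1 mouse gave 1740 to 2070, 1645 to 2045, 1968 to 2443 and 2197 to 2495 in the order of the first sentence. The direction turned for Plin2 (-0.0659) and Abca1 (-0.0561) between KC-like and endothelial-like cells with classes by the share of markers. The causes were not tested.

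Mice with the same number did not deviate together (correlations of -0.211 to 0.207), so the numbers do not pair them. The replicate block gave 0 calls in each diet comparison and changed no other call. The number of clusters, the centring and the lower endothelial marker level were alternatives chosen after seeing the data. Leaving out KC-like cells with at least 3 endothelial markers was not run, since all but 1 had them, nor was the MoMac/DC-like comparison by share of markers.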

Other observations

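Plin2 in hepatocyte-like cells was 6.29 in ND1 and 2.55, 6.24 and 9.02 in HFD1, HFD2 and HFD3, and the other ND mice had under 3 such cells.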
